A study of Homo sapiens with 4 samples.

Results

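The 8 genes described here encode secreted growth factors and a vasoactive peptide: HBEGF, PDGFA, PDGFB, VEGFA, VEGFB, HGF, TGFB1 and ADM. They are 8 of the 63677 genes counted, and they were chosen around the low levels of HBEGF, PDGFB and ADM with ILF2 shRNA in these same libraries. Of the 8, 6 passed the filter on low counts, as did 19142 genes in all, and PDGFA and HGF did not. Total RNA depleted of ribosomal RNA was sequenced from H929 cells, an established human multiple myeloma line, transduced with an shRNA against ILF2 (2 libraries) or with a non-silencing shRNA (2 libraries). ILF2 encodes a subunit of a protein complex that binds double-stranded RNA. Whether both ILF2 shRNA libraries carry 1 hairpin or several, and the time between transduction and harvest, are not given in the sources used here. The submitters call the replicates independent, but nothing says that they were separate transductions, so every SE and p-value below rests on the spread between these libraries, which may be technical.

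Growth factors of this kind are secreted or shed from the cell surface and act on receptors of the same or of neighbouring cells. HBEGF is made as a membrane-anchored precursor that metalloproteases release, and it binds the receptors EGFR and ERBB4. PDGF chains form dimers that bind the PDGF receptors of mesenchymal cells, and VEGFA and VEGFB bind receptors of endothelial cells. HGF acts through the receptor MET. TGFB1 is stored as a latent complex. ADM encodes adrenomedullin, a vasodilator peptide that acts through CALCRL paired with a RAMP protein. In the bone marrow, myeloma cells are known to exchange such factors with stromal and endothelial cells, and VEGFA and ADM are known hypoxia-induced genes.

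The ILF2 shRNA libraries held 63459322 and 71359863 counted fragments, and the non-silencing libraries held 72977082 and 71389341. ILF2 stood at 107 and 114 CPM (counts per 1000000 counted fragments, on TMM-adjusted library sizes) with ILF2 shRNA, against 717 and 733 CPM with non-silencing shRNA, which fits the labels. Of 8 plasma cell marker genes, all were abundant, with summed levels of 7132 and 7341 CPM in ILF2 shRNA libraries and 7018 and 6982 CPM in non-silencing libraries; 3 of them were higher and 2 lower by the test used below. The 5 markers of marrow stroma summed to 0.204 and 0.130 CPM with ILF2 shRNA and to 0.0945 and 0.153 CPM with non-silencing shRNA, and the collagen gene COL1A2 was at 0 in every library. The 4 endothelial markers summed to at most 0.101 CPM in a library and the 4 platelet markers to at most 0.310 CPM, with CDH5, PF4 and PPBP at 0. Among 4 T cell markers, CD3E stood at 16.1 and 17.0 CPM with ILF2 shRNA and at 8.22 and 7.49 CPM with non-silencing shRNA, while CD3D, CD3G and CD2 did not exceed 0.0578 CPM. The 4 monocyte markers summed to 0.424 and 0.332 CPM with ILF2 shRNA and 0.567 and 0.680 CPM with non-silencing shRNA. Of these, CSF1R was called lower (edgeR adjusted p = 0.048), a call that ended when any 1 of the 4 libraries was left out. Its log2 fold change then lay between -1.01 and -0.73. DESeq2 on all 4 libraries did not call CSF1R. The 3 epithelial markers summed to 0.648 to 0.926 CPM over all libraries. Mitochondrial genes took 0.516% and 0.463% of fragments in ILF2 shRNA libraries and 0.351% and 0.307% in non-silencing libraries; their part in the results below was not tested. In bulk RNA, fewer cells that make a transcript and less of it per cell cannot be told apart.

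HBEGF (ENSG00000113070, GRCh37 chromosome 5, 139712428 to 139726216, minus strand) had 70 and 80 fragments with ILF2 shRNA, against 314 and 296 with non-silencing shRNA. On the CPM scale these were 1.10 and 1.16 in ILF2 shRNA libraries and 4.24 and 4.11 in non-silencing libraries. Both ILF2 shRNA libraries lay far below both non-silencing libraries, and libraries of a group lay close together. The fitted log2 fold change was -1.89 (SE 0.16, n = 2 per group), so 27.1% of the non-silencing level remained. HBEGF is the least abundant of the 6 members that passed the filter, and counting alone gives its log2 fold change an SD of 0.13. On chromosome 5, where HBEGF lies, the median over 900 tested genes was a log2 fold change of 0.15, in the opposite direction.

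PDGFB (ENSG00000100311, GRCh37 chromosome 22, 39619364 to 39640756, minus strand), which encodes the B chain of platelet-derived growth factor, had 451 and 461 fragments with ILF2 shRNA and 1682 and 1500 with non-silencing shRNA. Its level was 7.08 and 6.66 CPM in ILF2 shRNA libraries, against 22.7 and 20.8 CPM in non-silencing libraries. The groups did not overlap, and the wider gap between replicates was that of the non-silencing pair. The log2 fold change was -1.66 (SE 0.09, n = 2 per group), which leaves 31.6% of the non-silencing level.

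ADM (ENSG00000148926, GRCh37 chromosome 11, 10326227 to 10328944, plus strand) had 271 and 311 fragments with ILF2 shRNA and 1019 and 931 with non-silencing shRNA. This was 4.25 and 4.49 CPM in ILF2 shRNA libraries and 13.8 and 12.9 CPM in non-silencing libraries. Here too the groups were well apart, and the log2 fold change of -1.61 (SE 0.10, n = 2 per group) leaves 32.8%. When the 12400 genes whose mean level in edgeR reached 1 log2 CPM were ordered, HBEGF, PDGFB and ADM took places 3, 6 and 7 from the lowest log2 fold change upward. These positions are what the 3 genes were chosen for, and they are given as a description.

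**Figure D1:**
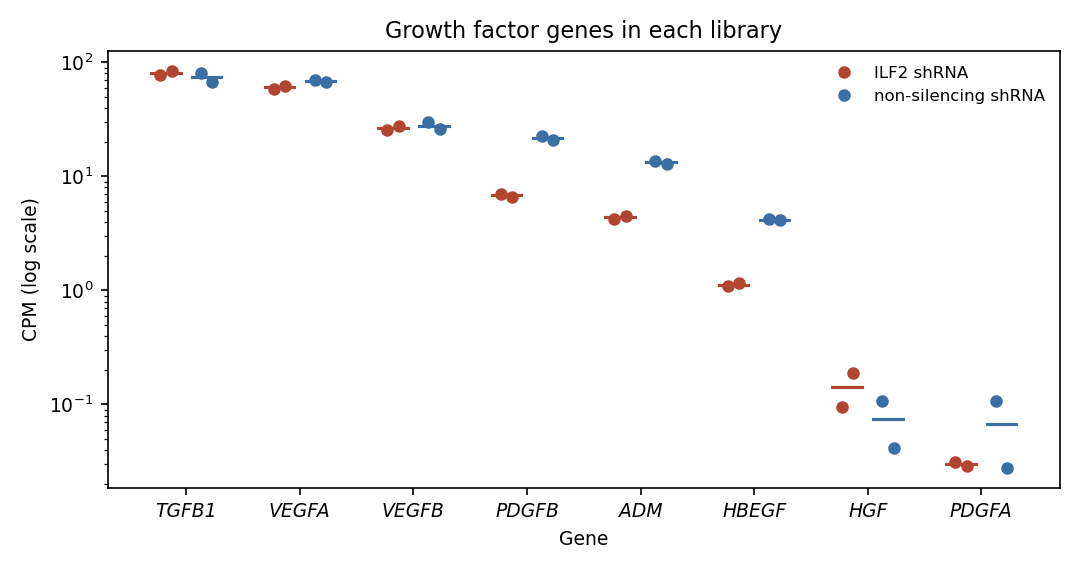
CPM of the 8 members on a log axis, with ILF2 shRNA libraries left of non-silencing libraries for each gene; points are libraries and bars are means of 2. PDGFB, ADM and HBEGF are separated by group, TGFB1 and VEGFB overlap, VEGFA is separated by a small gap, and HGF and PDGFA lie below 0.2 CPM.

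The other factors of the set stood at levels that differed little between the groups. VEGFA (ENSG00000112715, GRCh37 chromosome 6, 43737921 to 43754224, plus strand), the main angiogenic member of its family, had 59.0 and 61.7 CPM with ILF2 shRNA and 69.5 and 66.7 CPM with non-silencing shRNA. Its groups did not overlap, but the distance was small, with a log2 fold change of -0.17 (SE 0.07, n = 2 per group). VEGFB (ENSG00000173511, GRCh37 chromosome 11, 64002010 to 64006259, plus strand) had 25.3 and 27.8 CPM with ILF2 shRNA, against 29.8 and 26.0 CPM with non-silencing shRNA. Those ranges overlapped, and the log2 fold change was -0.07 (SE 0.08). TGFB1 (ENSG00000105329, GRCh37 chromosome 19, 41807492 to 41859816, minus strand), which encodes a cytokine that restrains the growth of many cell types, had 77.6 and 84.7 CPM with ILF2 shRNA and 81.5 and 67.4 CPM with non-silencing shRNA. Its log2 fold change was 0.12 (SE 0.08), and non-silencing replicate 1 lay between the 2 ILF2 shRNA libraries. The log2 fold change of TGFB1 was between -0.01 and 0.27 and that of VEGFB between -0.17 and 0.03 over all alternatives tried, so neither has a settled sign.

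PDGFA and HGF were close to undetected. PDGFA (ENSG00000197461, GRCh37 chromosome 7, 536895 to 559933, minus strand), which encodes the A chain of platelet-derived growth factor, had 2 and 2 fragments with ILF2 shRNA and 8 and 2 with non-silencing shRNA. The ratio of its summed counts, scaled by library size, was 0.440, with an exact 95% interval for counting error of 0.101 to 1.52. HGF (ENSG00000019991, GRCh37 chromosome 7, 81328322 to 81399754, minus strand) had 6 and 13 fragments with ILF2 shRNA and 8 and 3 with non-silencing shRNA, a ratio of 1.90 with an interval of 0.859 to 4.42. Both intervals include 1, and a difference was not detectable at this depth. Such intervals cover counting error only and leave out the spread between replicates, and the fragments carry no molecular identifiers that would mark duplicates.

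Across all tested genes, 20.3% passed edgeR's quasi-likelihood test at an adjusted p under 0.05. Of all tested genes, 10.2% were called higher and 10.1% lower with ILF2 shRNA. Of the 6 tested members, 3 were called lower, namely HBEGF, PDGFB and ADM, and 0 were called higher. At an unadjusted p under 0.05 edgeR had 4 lower, with VEGFA added, and 0 higher, and DESeq2 and limma-voom each called 3 lower and 0 higher. The groups of libraries did not overlap in 4 of the 6 tested members, against 56.5% of all tested genes. A log2 fold change of -1 or lower was reached by the same 3 members and by 1.67% of all tested genes. Nothing is read from these counts, because the members were chosen from this same comparison. With exon GC content and length taken into account, VEGFA was also called lower and TGFB1 was called higher. That setting called 2912 higher and 2874 lower of all tested genes, against 1960 and 1925 without it. The log2 fold change of VEGFA was -0.14 with it, against -0.17 without it.

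Levels of different genes can be set side by side per exon length, as FPKM (CPM per kilobase of annotated exon). TGFB1 was the highest, at 24.0 and 26.2 FPKM with ILF2 shRNA and 25.2 and 20.8 FPKM with non-silencing shRNA. VEGFB followed with 16.4 and 18.1 FPKM in ILF2 shRNA libraries and 19.4 and 16.9 FPKM in non-silencing libraries. These 2 genes did not overlap within a group. The order of the next 3 differed between the groups. In ILF2 shRNA libraries VEGFA came first with 4.09 and 4.27 FPKM, then PDGFB with 1.88 and 1.77 FPKM and ADM with 1.56 and 1.65 FPKM. In non-silencing libraries PDGFB came first with 6.04 and 5.53 FPKM, followed by ADM with 5.06 and 4.75 FPKM and VEGFA with 4.81 and 4.63 FPKM, and ADM and VEGFA overlapped. HBEGF was the lowest of the 6 members that passed the filter in both groups, at 0.364 and 0.383 FPKM with ILF2 shRNA and 1.4 and 1.36 FPKM with non-silencing shRNA. The annotated exons of VEGFA sum to 14431 bases, longer than those of 98.5% of tested genes, which lowers its FPKM against the other members. Averaged over the 4 libraries, TGFB1 lay above 89.2% of tested genes on this scale, VEGFB above 85.0%, VEGFA above 60.1%, PDGFB above 57.1%, ADM above 54.5% and HBEGF above 33.9%.

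**Figure D2:**
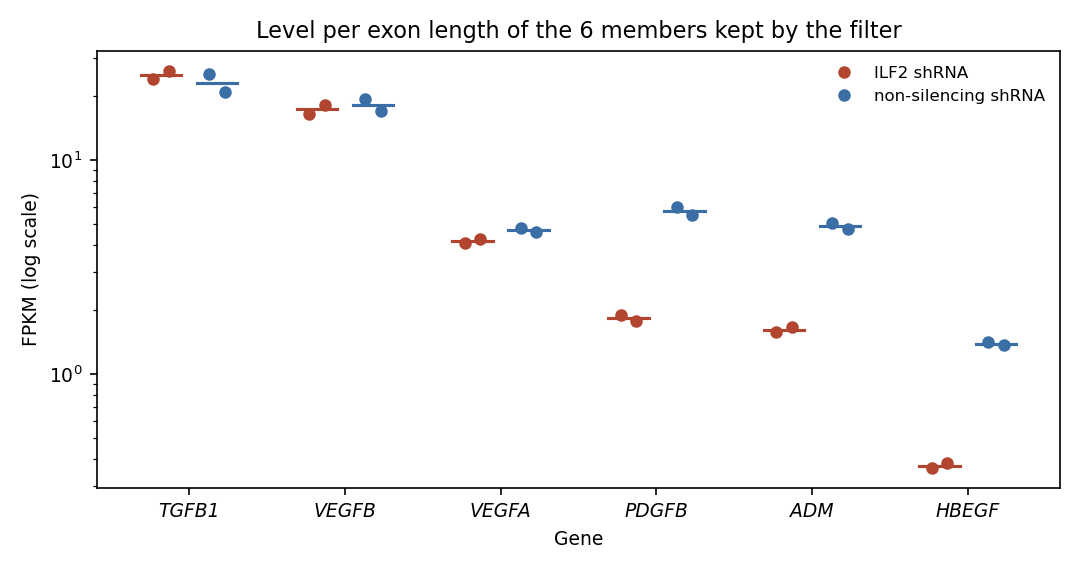
FPKM, the level per exon length, of the 6 members that passed the filter, on a log axis, with ILF2 shRNA libraries left of non-silencing libraries; points are libraries and bars are means of 2. VEGFA lies above PDGFB and ADM in ILF2 shRNA libraries, and below PDGFB and level with ADM in non-silencing libraries.

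The promoters of HBEGF, ADM and TGFB1 are shown because the first pair of genes were lower with ILF2 shRNA and TGFB1, the most abundant member, was not called. They run from 250 bases before the transcript start to 50 after it, 5′ to 3′ on the gene's strand, and are taken from RefSeq on GRCh38.p14: chr5:140346554-140346853 (minus strand) for HBEGF, chr11:10304823-10305122 (plus strand) for ADM and chr19:41353873-41354172 (minus strand) for TGFB1. Capitals mark 3 kinds of motif, each searched on either strand. GC boxes have the letters GGGCGG. The TATA box was searched with the letters TATAAA. The core of the hypoxia response element was searched as ACGTG, and its other form was searched as GCGTG. GC boxes may overlap each other.
HBEGF: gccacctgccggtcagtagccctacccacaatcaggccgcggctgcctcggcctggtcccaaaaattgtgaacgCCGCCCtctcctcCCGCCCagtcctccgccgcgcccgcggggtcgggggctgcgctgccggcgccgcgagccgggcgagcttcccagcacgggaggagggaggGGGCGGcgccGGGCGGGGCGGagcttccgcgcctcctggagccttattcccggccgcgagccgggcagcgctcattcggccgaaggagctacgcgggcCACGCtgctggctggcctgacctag
ADM: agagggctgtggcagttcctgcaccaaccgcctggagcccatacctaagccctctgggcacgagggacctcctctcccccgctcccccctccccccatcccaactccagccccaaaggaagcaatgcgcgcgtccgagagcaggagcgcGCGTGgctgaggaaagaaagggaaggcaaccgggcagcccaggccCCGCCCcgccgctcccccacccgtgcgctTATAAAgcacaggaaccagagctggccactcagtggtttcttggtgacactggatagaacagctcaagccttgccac
TGFB1: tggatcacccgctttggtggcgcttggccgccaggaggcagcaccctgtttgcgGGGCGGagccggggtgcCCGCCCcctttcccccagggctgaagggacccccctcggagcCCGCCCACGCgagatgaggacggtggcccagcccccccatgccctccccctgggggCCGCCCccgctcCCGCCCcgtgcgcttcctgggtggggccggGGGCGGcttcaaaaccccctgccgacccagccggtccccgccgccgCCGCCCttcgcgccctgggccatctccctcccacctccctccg
Of the 8 members, 6 had an entry; PDGFB and VEGFA had none. The HBEGF window held 5 GC boxes and the TGFB1 window 7, while that of ADM held 1, and 45% of the 35116 promoters in the table held at least 1. ADM was the only one of the 6 with TATAAA, 27 bases before the start, a motif found in 11.5% of promoters. GCGTG occurred once in each of these 3 windows, on the opposite strand in HBEGF and TGFB1, and in 36.5% of all promoters. In TGFB1 it shares a base with a GC box. ACGTG, found in 21.4% of promoters, was in none of the 6 genes' windows, nor were the AP-1 motif TGANTCA (7.71%) and the CRE motif TGACGTCA (1.85%). Exon GC content was 50.1% for HBEGF, near the middle of tested genes, and 60.4% and 60.0% for PDGFB and ADM, higher than in 89.1% and 88.0% of them.

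The 3′ untranslated regions were searched for ATTTA, the DNA form of the AUUUA pentamer of AU-rich elements, which are known to shorten the life of many growth factor mRNAs. The canonical transcripts of GENCODE lifted to GRCh37 gave a region for 12991 tested genes, of which 72.9% held at least 1 ATTTA. VEGFA held 10 copies in 1925 bases, HBEGF 5 in 1456, PDGFB 5 in 1983 and ADM 3 in 756. TGFB1 held 2 in 729 bases and VEGFB 0 in 931. Per kilobase these were 5.19 in VEGFA, 3.97 in ADM, 3.43 in HBEGF, 2.52 in PDGFB and 2.74 in TGFB1, against a median of 1.72. The 30-base window with the most copies is shown for these 4 genes, 5′ to 3′ on the gene's strand with ATTTA in capitals. The GRCh37 positions are chr5:139713251-139713280 (minus strand) for HBEGF, chr22:39619722-39619751 (minus strand) for PDGFB, chr11:10328628-10328657 (plus strand) for ADM and chr6:43753608-43753637 (plus strand) for VEGFA.
HBEGF: tATTTAttttattctatgtatgttaATTTA
PDGFB: taaaATTTATTTAtattccgtATTTAaagt
ADM: ggtaactatcaatATTTAagtttgttgctg
VEGFA: gttaatATTTAatttcaactATTTAtgaga
The PDGFB window holds 3 copies, 2 of them overlapping, the HBEGF and VEGFA windows hold 2 each and the ADM window holds 1. The longer AU-rich motif TTATTTATT was searched in the same regions, and 9.49% of tested genes with a region held at least 1. VEGFA held 1 copy, and HBEGF, PDGFB, ADM and every other member held 0.

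Next, 12 lists of genes around these factors were counted in the same fit. Together they held 131 genes with a count row, of which 90 were tested, 12 were called higher and 15 lower. This is 30% of those tested, against 20.3% of all tested genes, and their median log2 fold change was -0.05, against -0.00 for all tested genes. The lists were drawn up with earlier results of these data known. Without non-silencing replicate 1, 9 were called lower.

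Other ligands of the families included several lower ones. Of 4 tested EGF-family ligands, 1 fell: NRG2, a neuregulin gene on chromosome 5, had 1.63 and 1.13 CPM with ILF2 shRNA and 2.77 and 2.65 CPM with non-silencing shRNA, which is -0.98 as a log2 fold change (SE 0.17; edgeR, adjusted p = 8.6e-06). TGFA, NRG1 and NRG3 did not pass, and EGF, AREG, EREG, BTC, EPGN and NRG4 had too few counts for a test. Of the PDGF ligands and receptors, 2 were tested and 1 fell. PDGFD, a further PDGF chain, had 2.31 and 2.48 CPM with ILF2 shRNA, against 4.40 and 4.26 CPM with non-silencing shRNA (log2 fold change -0.85, SE 0.13, edgeR adjusted p = 1.5e-06). PDGFC stood at 4.27 and 3.78 CPM with ILF2 shRNA and 4.25 and 3.8 CPM with non-silencing shRNA. Of 14 tested genes of TGF-beta ligands, latency, receptors and SMADs, 2 fell. These were TGFB2 and TGFB3, the other TGF-beta ligands, which fell by 0.92 and 0.86 on the log2 scale (edgeR adjusted p = 0.015 and 0.0024), at levels no higher than 1.47 CPM. The TGFB2 call ended in edgeR without ILF2 shRNA replicate 2 (adjusted p = 0.22) or without non-silencing replicate 1 (adjusted p = 0.21) and by DESeq2 (adjusted p = 0.14), and the TGFB3 call ended without non-silencing replicate 1 (edgeR adjusted p = 0.063). The VEGF-family ligands VEGFC and PGF did not pass. Among 7 tested genes for other secreted growth factors and cytokines, IGF1, a survival factor for myeloma cells, rose to 8.06 and 7.63 CPM with ILF2 shRNA, against 3.74 and 3.37 CPM with non-silencing shRNA (log2 fold change 1.14, SE 0.11, edgeR adjusted p = 1.0e-11). DKK1, a WNT inhibitor that myeloma cells are known to secrete, fell to 0.910 and 0.751 CPM, against 1.65 and 1.76 CPM with non-silencing shRNA (log2 fold change -1.04, SE 0.20, edgeR adjusted p = 6.4e-05). Without ILF2 shRNA replicate 1, 2 genes of this list were called higher and 2 lower, where the fit to 4 libraries had 1 each.

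Receptors of HBEGF and PDGFB were scarcely present. EGFR had 0 fragments in every library, ERBB4 had 1 and 4 with ILF2 shRNA and 7 and 1 with non-silencing shRNA, PDGFRA had 0 and 0, against 2 and 0, and PDGFRB had 8 and 4, against 0 and 2. ERBB2, a co-receptor without a ligand of its own, was at 3.19 and 3.05 CPM with ILF2 shRNA and 2.71 and 2.93 CPM with non-silencing shRNA. The receptor genes of VEGFA gave KDR at 0 in every library and FLT1 at 1 and 2 fragments with ILF2 shRNA and 3 and 3 with non-silencing shRNA. NRP2, a co-receptor, fell to 0.502 and 0.448 CPM with ILF2 shRNA, against 0.864 and 1.04 CPM with non-silencing shRNA (log2 fold change -1.0, SE 0.26, edgeR adjusted p = 0.0027). This call, 1 of 3 tested genes of the VEGF list, ended without non-silencing replicate 2 (edgeR adjusted p = 0.071) and by DESeq2 (adjusted p = 0.055). MET, the receptor of HGF, was present at 38.2 and 35.5 CPM with ILF2 shRNA and 31.5 and 33.8 CPM with non-silencing shRNA, a difference that did not pass. TGFBR1 and TGFBR2 were also present and did not pass. For adrenomedullin, CALCRL rose to 1.80 and 1.88 CPM with ILF2 shRNA, against 0.931 and 1.03 CPM with non-silencing shRNA (log2 fold change 0.91, SE 0.19, edgeR adjusted p = 0.00018). Its partners were nearly absent, with RAMP2 at 0 in every library, RAMP3 at 0 and 0 fragments with ILF2 shRNA and 2 and 0 with non-silencing shRNA, and RAMP1 at 0 and 4, against 0 and 1.

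Most genes that process or release the factors were present in both groups. Of 8 tested genes in the list of EGF receptors and HBEGF release, 1 rose and 1 fell. RHBDF2, which encodes iRhom2, a partner that brings the sheddase ADAM17 to the cell surface, fell to 36.9 and 40.6 CPM with ILF2 shRNA, against 55.9 and 49.8 CPM with non-silencing shRNA (log2 fold change -0.45, SE 0.08, edgeR adjusted p = 7.5e-06). ADAM10, a sheddase gene, rose by 0.20 (SE 0.07, edgeR adjusted p = 0.032), a call that ended without ILF2 shRNA replicate 1 (adjusted p = 0.26), without non-silencing replicate 1 (0.31) or with that group's replicate 2 left out (0.23). ADAM17 itself, at 43.8 and 38.1 CPM with ILF2 shRNA and 43.2 and 45.3 CPM with non-silencing shRNA, did not pass. PAM, which encodes the enzyme that amidates adrenomedullin, rose to 49.6 and 50.8 CPM with ILF2 shRNA, against 37.2 and 38.2 CPM with non-silencing shRNA (log2 fold change 0.41, SE 0.07, edgeR adjusted p = 1.9e-05). PAM lies on chromosome 5. It and CALCRL were the 2 called of 4 tested genes in the adrenomedullin list. Of the proprotein convertases, which cleave PDGF and TGF-beta precursors, 0 of 5 tested genes passed in edgeR or in DESeq2, and 1 was lower at an unadjusted p under 0.05. PCSK7 stood at 109 and 115 CPM with ILF2 shRNA and 105 and 102 CPM with non-silencing shRNA, and FURIN at 66.3 and 71.2 CPM with ILF2 shRNA and 82.6 and 72.4 CPM with non-silencing shRNA. Without ILF2 shRNA replicate 2, FURIN was called lower (edgeR adjusted p = 0.037). In the HGF list, 2 of 7 tested genes rose: MST1, which encodes a relative of HGF, by 0.75 (edgeR adjusted p = 1.9e-06), and ST14, which encodes the protease matriptase, by 0.76 (edgeR adjusted p = 2.3e-05).

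Hypoxia is a known inducer of ADM and VEGFA, and other hypoxia-induced genes were counted as a list. Whether hypoxia signalling had a part in the levels of ADM and VEGFA was not tested. Of 12 tested hypoxia-induced genes, 4 rose and 1 fell; the median of the 12 log2 fold changes was 0.01. SLC2A1, the glucose transporter gene, fell to 44.9 and 48.0 CPM with ILF2 shRNA, against 67 and 61.8 CPM with non-silencing shRNA (log2 fold change -0.47, SE 0.07, edgeR adjusted p = 1.1e-06). MXI1, a MYC antagonist gene, rose by 0.42 (SE 0.08, edgeR adjusted p = 2.5e-05). PDK1, a kinase gene of pyruvate metabolism, rose by 0.23 and DDIT4, an inhibitor gene of mTORC1, by 0.20 (edgeR adjusted p = 0.0073 and 0.03). Without non-silencing replicate 1 these 2 gave adjusted p = 0.28 and 0.13, and without replicate 2 they gave 0.095 and 0.44; DDIT4 also lost its call without ILF2 shRNA replicate 2 (adjusted p = 0.17). With non-silencing replicate 1 or replicate 2 left out 1 gene of the list was called higher, and with ILF2 shRNA replicate 2 left out 2 were. Among the hypoxia-inducible factors and their regulators, 1 of 10 tested genes rose and 2 fell. EPAS1, which encodes HIF-2 alpha, rose to 6.45 and 7.25 CPM with ILF2 shRNA, against 4.35 and 4.07 CPM with non-silencing shRNA (log2 fold change 0.70, SE 0.11, edgeR adjusted p = 2.9e-06). HIF1A, at 105 and 98.7 CPM with ILF2 shRNA and 118 and 123 CPM with non-silencing shRNA, fell by 0.24 (edgeR adjusted p = 0.0073), a call that ended without ILF2 shRNA replicate 2 (adjusted p = 0.06) and with non-silencing replicate 1 (0.073) or replicate 2 (0.21) left out. ARNT2, a partner subunit, fell by 0.34 (edgeR adjusted p = 0.038); it had adjusted p = 0.11 with ILF2 shRNA replicate 1 or replicate 2 left out, 0.41 without non-silencing replicate 2 and 0.15 by DESeq2. The count of lower regulators was 1 without ILF2 shRNA replicate 1 or non-silencing replicate 1, and it was 0 when ILF2 shRNA replicate 2 or non-silencing replicate 2 was left out; 2 were higher without ILF2 shRNA replicate 1.

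HBEGF is also a known target of ERK signalling. Of 14 tested ERK-responsive genes, 5 fell and 1 rose; the median of the 14 log2 fold changes was -0.15. DUSP4, an ERK phosphatase gene, fell to 66.2 and 66.8 CPM with ILF2 shRNA, against 111 and 110 CPM with non-silencing shRNA (log2 fold change -0.73, SE 0.07, edgeR adjusted p = 1.8e-12). PHLDA1 fell by 0.63 (SE 0.08, edgeR adjusted p = 3.2e-09) and SPRY2, an inhibitor gene of the pathway, by 1.55 (SE 0.34, edgeR adjusted p = 0.00047) at no more than 0.783 CPM. DUSP5, another ERK phosphatase gene, rose to 1098 and 1190 CPM with ILF2 shRNA, against 808 and 823 CPM with non-silencing shRNA (log2 fold change 0.49, SE 0.07, edgeR adjusted p = 4.2e-08). The immediate-early genes EGR1 and FOS did not pass. Without non-silencing replicate 1, 2 of the list fell and SPRY2 had an adjusted p of 0.053.

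**Figure D3:**
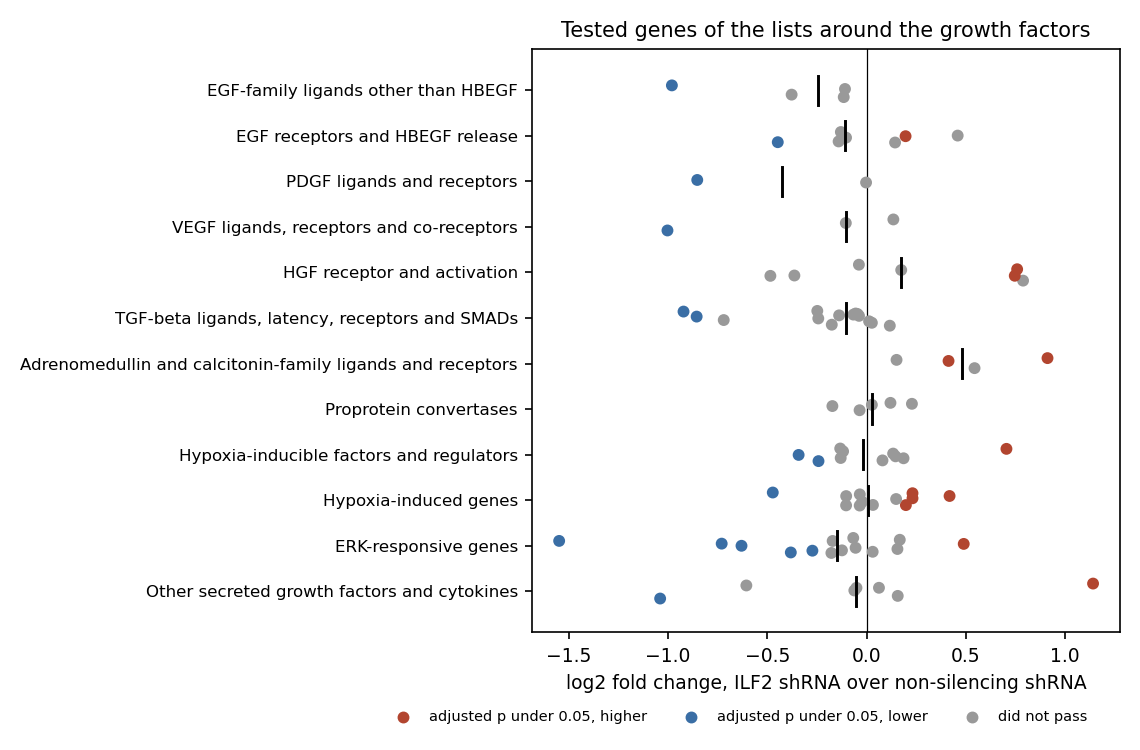
log2 fold change (ILF2 shRNA over non-silencing shRNA) of the 90 tested genes in 12 lists; each point is a gene, red if called higher, blue if called lower and grey if not called, and black bars are list medians. The lowest point is SPRY2 at -1.55 and the highest is IGF1 at 1.14.

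The chromosomal surroundings of the members were not used to choose them. For HBEGF, the nearest tested gene at lower coordinates was PFDN1, a chaperone subunit gene 29722 bases away, which rose by 0.26 (SE 0.08, edgeR adjusted p = 0.013). The nearest at higher coordinates, ANKHD1-DT, had a log2 fold change of 0.02 and did not pass. Tested genes of chromosome 5, where both lie, had a median log2 fold change of 0.15. For PDGFB both neighbours rose: the Polycomb gene CBX7, 70685 bases away, by 0.53 (SE 0.09, edgeR adjusted p = 7.5e-06) and the ribosomal protein gene RPL3, 68131 bases away, by 0.20 (SE 0.07, edgeR adjusted p = 0.023). For ADM both neighbours fell. SBF2, 10473 bases away on the other strand, had 13.4 and 12.0 CPM with ILF2 shRNA and 17.0 and 17.3 CPM with non-silencing shRNA (log2 fold change -0.43, SE 0.09, edgeR adjusted p = 0.00017). AMPD3, which encodes an AMP deaminase and whose annotated start lies 916 bases past the end of ADM on the same strand, had 5.05 and 5.58 CPM with ILF2 shRNA and 8.37 and 8.15 CPM with non-silencing shRNA (log2 fold change -0.63, SE 0.11, edgeR adjusted p = 5.7e-06). These falls were smaller than the -1.61 of ADM. Neighbours of VEGFA (MRPS18A and MRPL14), of VEGFB (ENSG00000256116 and FKBP2) and of TGFB1 (HNRNPUL1 and TMEM91) did not pass. Beside the 2 members with too few counts, SEMA3C rose by 0.47 (edgeR adjusted p = 2.4e-05) and CACNA2D1 fell by 0.44 (edgeR adjusted p = 0.0005) on either side of HGF, and LINC03015 and PRKAR1B next to PDGFA did not pass. In all, 4 of 16 neighbours were higher and 3 lower, against 10.2% and 10.1% of all tested genes. The calls of PFDN1 and RPL3 ended without ILF2 shRNA replicate 2 (edgeR adjusted p = 0.065 and 0.21), with non-silencing replicate 1 left out (0.11 and 0.31) and with its replicate 2 left out (0.17 and 0.26), and each omission left 2 higher neighbours. Opposite-strand genes overlap TGFB1 and VEGFA, and the counting used strand, per the file headers.

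**Figure D4:**
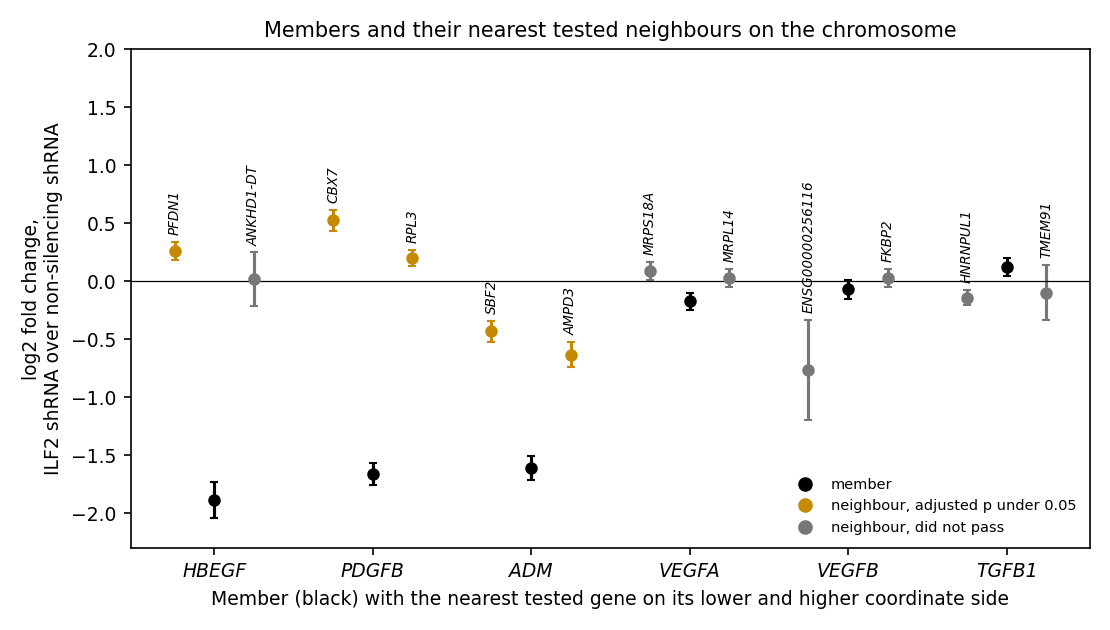
log2 fold change (ILF2 shRNA over non-silencing shRNA) with SE of the 6 tested members in black and of the nearest tested gene on each side, in gold where called and grey where not. Both neighbours of ADM lie below 0, and both of PDGFB and the lower-coordinate one of HBEGF lie above it. Each of these named neighbours is closer to 0 than the member beside it.

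Likeness of pattern was measured as the distance between log2 CPM values centred on the mean of the 4 libraries. PDGFB and ADM were 0.13 apart, HBEGF and PDGFB 0.24 and HBEGF and ADM 0.26. Among other genes of at least 1 log2 CPM, ADM was nearest to CIITA (0.06), IGF2BP1 (0.17) and MX2 (0.18), PDGFB to CIITA (0.19), MX2 (0.23) and IGF2BP1 (0.26), and HBEGF to MX2 (0.15), KIAA1755 (0.21) and CIITA (0.30). With 4 libraries this distance mostly reflects the size of the difference between the groups. CIITA, the regulator of MHC class II genes, had 1.24 and 1.37 CPM with ILF2 shRNA and 4.06 and 3.8 CPM with non-silencing shRNA.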

How the data were processed

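RNA was measured in 2 ILF2 shRNA and 2 non-silencing shRNA libraries of H929 cells, grouped by sample title. The authors deposited unnormalised fragment counts for each gene, which featureCounts 1.4.6-p2 gave on GRCh37 and Ensembl release 75, paired and with strand setting 2, per the file headers. They show no setting for multi-mapped fragments. STAR 2.3.0 and SAMtools 0.1.19 are named per the submitters' processing notes, and Tophat2 in the design text. Of 63677 genes, 55665 matched a symbol by gene ID; CCL3 did not and is not analysed here.

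Counts were fitted for all genes in edgeR 4.0.16 (R 4.3.3) with TMM, filterByExpr at a minimum count of 10, robust dispersions and two-sided quasi-likelihood tests on a model of group alone; p-values were adjusted over 19142 genes (Benjamini-Hochberg). The SE of a log2 fold change came from the F statistic. The biological coefficient of variation was 5.38%. The procedure was tested on simulated counts. Members, lists and neighbours were chosen with earlier results of these data known, so members have no p-value. Genes named are the members, ILF2, up to 4 called genes with the smallest adjusted p of each list (otherwise the 2 most abundant), the nearest tested gene on each side, and the 3 genes nearest in pattern to HBEGF, PDGFB and ADM; other list genes given with values were named for their role as receptor or enzyme. Alternatives were DESeq2 1.42.0, limma-voom (limma 3.58.1), DESeq2 or upper-quartile factors, no filter, 1 CPM in 2 libraries, replicate number as a block, each library left out, and, chosen after seeing the data, a GC and length correction (mgcv 1.9.3).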

Additional observations from a re-analysis of the deposited data

How the results depend on the processing

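With 12 alternatives, the log2 fold change of HBEGF stayed between -1.92 and -1.85, that of PDGFB between -1.73 and -1.60, that of ADM between -1.65 and -1.56 and that of VEGFA between -0.21 and -0.14. HBEGF, PDGFB and ADM passed the threshold in each of them, but this is no independent support, since they were chosen from this comparison. The GC and length correction was added after seeing the data. It called 2912 higher and 2874 lower genes in all, where the fit without it had 1960 and 1925. It called 1 member higher (TGFB1), where that fit had 0. Of the lists it called 20 higher and 26 lower genes, where that fit had 12 and 15. The cause was not tested. The correction also brought PRKAR1B, HNRNPUL1, PCSK7 and FURIN past the threshold (edgeR adjusted p = 0.048, 0.0051, 0.0054 and 0.022). Leaving out 1 library gave 1029 to 1899 higher and 1070 to 1822 lower genes in all, against 1960 and 1925 with 4 libraries (1070 and 1073 without non-silencing replicate 1, 1029 and 1070 without its replicate 2), 0 higher and 3 lower members, 8 to 13 higher and 9 to 14 lower genes of the lists, and 2 to 4 higher and 3 lower neighbours; fewer samples enter these fits. A lone library is there assumed to vary like the other group.

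The labels give both groups replicate numbers 1 and 2. Deviations of same-numbered libraries had a correlation of -0.02 across genes, and nothing says that a number marks a shared culture, so the pairing was not used. A replicate block gave 1291 higher and 1297 lower genes in all, against 1960 and 1925 without it. It gave 8 higher and 12 lower genes of the lists, and 2 higher and 3 lower neighbours. Among the named genes, the block ended the calls of ADAM10, HIF1A, ARNT2, DDIT4, PDK1, PFDN1 and RPL3 (edgeR adjusted p from 0.075 to 0.19). DESeq2 called 1420 higher and 1321 lower genes in all. Of 47 genes outside the members named by the rule, 32 kept their side of the threshold under every alternative that tested them. ARNT2 missed it narrowly by limma-voom (adjusted p = 0.052).

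Depth limits PDGFA and HGF, which had 2 to 13 fragments per library and did not pass the filter, and the receptor genes with few or 0 fragments. In the alternative with no filter, neither PDGFA nor HGF passed the threshold.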
